A study of Xenopus tropicalis with 4 samples.

Results

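In the table of polyadenylation sites of Xenopus tropicalis, 1401 of 15410 named genes (9.09%) had 6 or more exonic sites. A site counts as exonic where its class code, read as in Cuffcompare, places it inside an exon (c) or overlapping one (o), and only these sites are described as sites of the genes. Together the 1401 genes hold 11835 exonic sites, of 36950 exonic sites and 66426 sites in all. Sites without a gene and the genes ankrd11 and pde4d were left out. The rule used the number of listed sites alone and no test between libraries, yet the sites leaned on the females. Of the 11835 sites, 5271 (44.5%) had 0 reads in both males and 394 (3.33%) in both females. These shares were not taken over all sites, so a lean of the whole table cannot be told from one of these genes. How far the lean favours levels called higher in females, or higher leading shares in males, was not tested. At the threshold, 447 genes had exactly 6 exonic sites and 757 had exactly 5.

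A polyadenylation site is where a nascent transcript is cut and given a poly(A) tail by the cleavage and polyadenylation machinery. Most genes carry more than a single site. Sites along the last exon change the length of the 3' untranslated region, while sites in earlier exons or introns can shorten the coding sequence itself. In animals, germ cells and nerve cells are known for unusual choices among such sites, and proliferating cells for favouring upstream ones.

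The libraries come from WTTS-seq, a method that reads the 3' ends of poly(A) RNA, made from total RNA (Trizol) of whole adult frogs. There were 2 females and 2 males, each library 1 frog, and no treatment, strain or age beyond adult is given. RNA of all organs is mixed in each library, so that fewer cells of a type and less RNA per cell cannot be told apart. The question in the series title is whether site use differs between the sexes.

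Depth was 2380500 (female 1), 1778737 (female 2), 2779715 (male 1) and 1531471 reads (male 2), of which the 11835 sites took 16.9%, 17.7%, 10.8% and 10.5%. Egg markers stood at 6725 and 5874 CPM (reads of exonic sites scaled to the effective library size, summed over the list) in the females against 56.4 and 65.5 in the males, with 18 of the 26 markers that have exonic sites at 0 in both males. Skeletal muscle markers stood at 11591 and 6184 CPM in the females against 197445 and 131707 in the males. The part of this difference in tissue makeup in the results below was not tested. The libraries differed in how many of the sites had a read. Female 2 had a read at 92.0% of the sites, female 1 at 71.4%, male 2 at 51.0% and male 1, the deepest library, at 34.8%. Reads came from female 2 only at 2096 sites (17.7%), from female 1 only at 348, from male 2 only at 227 and from male 1 only at 55. The shares of sites with a read, or with reads from a single frog, were not taken over all sites. With the rule applied to sites that have a read outside female 2, 955 genes remained, and with sites of 5 or more reads, 765. Both alternatives were chosen after the data were seen.

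The genes carried a median of 7 exonic sites and at most 33. From the first to the last exonic site they spanned a median of 13313 bases, with quartiles of 5348 and 29488 and a range of 551 to 651930. Genes with exactly 6 sites spanned a median of 9271 bases, genes with exactly 5 a median of 6174 and genes with 2 to 5 sites a median of 1717. Number of sites and span grow together, and the rule used the number of sites. These differences in span are thus not read as a trait of the multi-site genes. The sites of 45 genes reached over more than 100000 bases, and those of 107 genes lay within less than 2000. Neighbouring sites lay 439 bases apart in the median gene, and no pair was closer than 26 bases. Of the 11835 sites, 10475 lay inside an exon and 1360 overlapped one, and 271 of the 1401 genes had no overlapping site.

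**Figure D1:**
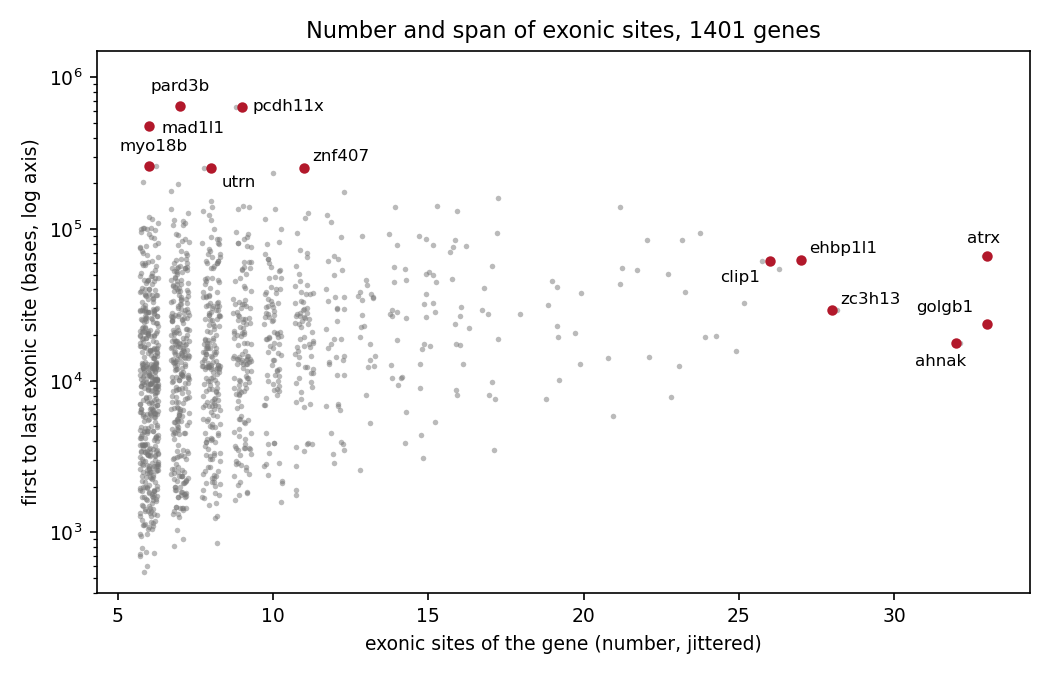
Number of exonic sites (horizontal axis, jittered) against the distance from the first to the last exonic site (vertical axis, bases, log scale) of the 1401 genes, with the 6 genes of most sites and the 6 of widest span in red. The genes with the most sites, such as atrx and golgb1 with 33 each, were not those of widest span, such as pard3b at 651930 bases with 7 sites.

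The most sites were listed for atrx, a chromatin remodeller of the SNF2 family, and golgb1, the Golgi tether giantin, with 33 each. ahnak, a giant scaffold protein, had 32, and zc3h13, a subunit of the RNA N6-methyladenosine methyltransferase complex, had 28. ehbp1l1, an effector of the GTPase Rab8, had 27, and clip1, a microtubule plus-end protein, had 26. In atrx (chromosome 8, minus strand) the leading site, defined as the one with the highest share of the gene's exonic reads averaged over the 4 libraries, was the sixth from the upstream end, at 24504213. It took 20.8% and 18.5% of the exonic reads in the females against 21.8% and 23.2% in the males. The share of this atrx site thus lay within a few points in all 4 frogs, though another site had the most reads in male 2. A read was found at 23 and 31 of the 33 sites in the females against 15 and 18 in the males.

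In golgb1 (chromosome 3, minus strand) the leading site, at 80280359, took 44.3% and 14.7% in the females against 26.9% and 20% in the males. Female 1 stood above the other 3 libraries, and the males lay between the females. In ahnak (chromosome 4, minus strand) the 2 most downstream sites, 108 bases apart, led in turn. The upstream one, at 41376112, took 32.9% and 28.1% in the females against 58.3% and 30.8% in the males. The shares of the sexes overlapped. None of the 6 genes with the most sites passed the test of site use described below.

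The widest spans belonged to pard3b, a gene of cell polarity (651930 bases, 7 sites), pcdh11x, a protocadherin gene (642840, 9 sites), and mad1l1, a spindle checkpoint gene (476306, 6 sites). myo18b, an unconventional myosin gene of muscle (262097, 6 sites), znf407, a zinc finger gene (254425, 11 sites), and utrn, which encodes utrophin (251676, 8 sites), followed. Their depth was low. pard3b had 53, 52, 7 and 2 exonic reads and mad1l1 had 62, 65, 8 and 6 in females 1 and 2 and males 1 and 2, so shares in the males rest on a handful of reads. In pcdh11x, with 14, 34, 24 and 18 reads, the most upstream site took 78.6% and 29.4% of the reads of the females and 75% and 88.9% of those of the males. Female 2 stood below the other 3 libraries there. myo18b rose in males, with 26 and 19 reads in the females against 354 and 163 in the males (log2 4.63 ± 0.65, SE, edgeR's quasi-likelihood test, adjusted p = 0.00503). Its last site led in all 4 libraries, at 73.1%, 52.6%, 72.6% and 54.6%.

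Shares were compared in the 736 genes with at least 20 exonic reads in every library. The other 665 fell short mostly in males, with 494 genes under 20 reads in male 1 and 560 in male 2, against 93 in female 1 and 54 in female 2. In the 736 genes the leading site was the most downstream one in 218 (29.6%) and the most upstream one in 58 (7.88%). In genes with 2 to 5 exonic sites of the same depth it was the most downstream one in 65.1%, and fewer sites make this likelier by counting alone. The leading site lay within 1000 bases of the last in 349 genes (47.4%) and more than 10000 bases before it in 151 (20.5%), at a median of 1223.5 bases.

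The leading site took a median of 59.5% of a gene's exonic reads in female 1, 47.8% in female 2, 68.1% in male 1 and 61.1% in male 2. Both males lay above both females, yet the females differed from each other by more than female 1 differed from either male. In genes with 2 to 5 sites the medians were 90.1%, 82.1%, 95% and 91.0%, in the same order of libraries. Fewer sites make a high leading share likelier by counting alone. Averaged over libraries, the leading share of single genes ran from 12.8% to 99.2%, with 40 genes over 90% and 43 under 30%. The effective number of sites, the inverse of the summed squared shares, had medians of 2.25 and 2.94 in the females against 1.85 and 2.14 in the males. With the reads of each gene thinned to its lowest library, it was 2.24, 2.96, 1.88 and 2.11.

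**Figure D2:**
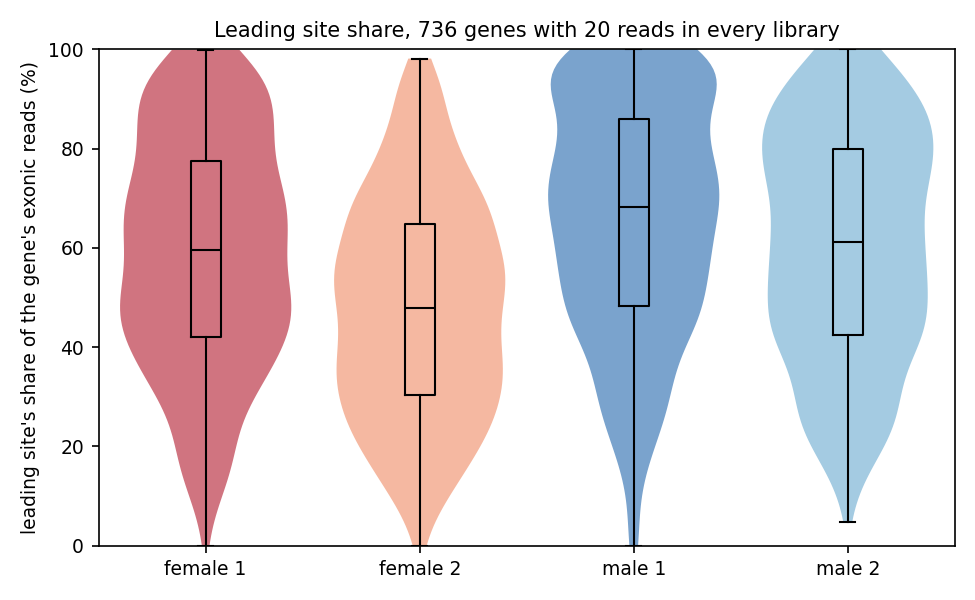
Share of a gene's exonic reads taken by its leading site (vertical axis, %) in each library, for the 736 genes with at least 20 exonic reads in every library. Violins show the spread over genes and boxes the quartiles, with the median as a line and whiskers to 1.5 times the box length, and the medians of 59.5%, 47.8%, 68.1% and 61.1% place female 2 lowest and male 1 highest.

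The highest shares were found in eef2.1, which encodes translation elongation factor 2, fam177b and slbp, the histone mRNA stem-loop binding protein gene. In eef2.1 the last site took 99.7% and 98.1% in the females against 99.6% and 99.2% in the males. In slbp the last site took 97.5% and 96.8% in the females against 100% in both males, which had 117 and 63 reads. Reads of these genes ended almost wholly at 1 of 6 sites. The lowest shares were those of LOC100498015, with 21 sites, ehbp1l1 and tnrc18. In ehbp1l1 the leading site, the sixteenth of 27, took 17.6% and 8.33% in the females against 15.9% and 11.6% in the males, which overlap.

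From females to males the leading share changed by a median of +9.96 percentage points over the 736 genes, and by 14.1 points regardless of sign. It was higher in males by more than 20 points in 217 of these genes and lower by more than 20 points in 45. The 1498 genes with 2 to 5 sites and the same depth, whose leading shares were higher, gave 195 and 85. Their median change was +2.79 points. In the 736 genes the 2 males lay above the 2 females in 309 (42.0%) and below them in 67 (9.10%). Over all 2236 genes with 2 or more exonic sites and the same depth, these figures were 37.7% and 10.3%. Both shares of the multi-site genes thus lie near those of all such genes. The 2236 include the 736, which brings the shares closer. Without female 1 the median change was 17.5 points, without female 2 it was 5.35, without male 1 it was 5.86 and without male 2 it was 12.4. The SD between replicates of the library medians was 6.83 points. With the leading site chosen in the replicate 1 frogs and measured in the replicate 2 frogs the median change was 12.7 points, and the other way round 5.02 points.

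The position of reads along the transcript was followed with a site index, in which each site is ranked from 0 (most upstream) to 1 (most downstream) and the ranks are averaged over the reads of a gene. The medians were 0.616 and 0.573 in the females against 0.587 and 0.611 in the males. Both males lay above both females in 172 genes and below them in 176, or 23.4% and 23.9%, where all 2236 genes gave 24.9% and 22.1%. The median difference in index was -0.0025. When the most downstream site was followed in place of the leading one, the median change was -1.04 points. Its share was lower in both males than in both females in 217 genes (29.5%) and higher in 133 (18.1%), where all 2236 genes gave 23.9% and 22.0%.

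The largest changes in leading share were those of dgcr8, cwf19l2, serinc5, mfn1, gab1 and ercc3. They are given as a description, since they were chosen for their size, and each gene had few reads in the males. dgcr8 encodes the RNA-binding partner of Drosha in microRNA processing. Its last site, at 146860576 on chromosome 1, took 7 of 30 and 4 of 40 reads in the females and 24 of 24 and 30 of 34 in the males. In cwf19l2, a spliceosome-associated gene on chromosome 2, the second site, at 157099146, took 8.89% and 8.33% in the females against 93.5% and 73.3% in the males. The last site of cwf19l2, 64068 bases further on, had 43 and 27 reads in the females against 0 and 1 in the males. In both genes the sexes were far apart and the males had 24 to 45 exonic reads.

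serinc5, which encodes a membrane protein known in human cells as a restriction factor of HIV, showed the largest change in the other direction. Its last site, at 163664712 on chromosome 1, took 92.8% and 91.9% in the females but 1.82% and 44.7% in the males. A site 2639 bases upstream, at 163662073, took 1.03% and 1.68% in the females against 98.2% and 47.4% in the males. The females were alike and the males, with 55 and 38 reads, were not. In mfn1, a mitochondrial fusion gene, the fifth of 6 sites took 35.3% and 32.1% in the females against 100% and 95.6% in the males. In gab1, a docking protein of receptor tyrosine kinases, the fourth site had 207 and 114 reads in the females against 0 and 2 in the males. The leading site of gab1, 531 bases downstream, had 22 and 75 against 21 and 17. In ercc3, the helicase XPB of transcription factor TFIIH, the last site took 20% and 1.79% in the females against 78.3% and 64.4% in the males.

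The smallest changes were those of baz1b, bicd2, mkl2 and rock2, each under 1 point between the means of the sexes. In rock2, a protein kinase gene, the leading site took 52.8% and 44.6% in the females against 12.5% and 85.3% in the males. In baz1b, a subunit of chromatin remodelling complexes, it took 63.8% and 28.8% in the females against 43.6% and 48.8% in the males. The males of rock2 and the females of baz1b lay far apart from each other. In mkl2 it took 84.4% and 57.3% in the females against 72.1% and 69.9% in the males, so the males lay close together and between the females.

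Site use, the split of a gene's exonic reads over its sites, passed the test in 26 of the 961 genes with at least 2 tested sites (2.71%), by diffSpliceDGE of edgeR at an adjusted p under 0.05. Over all 2525 genes tested the share was 1.98%, so the share of the multi-site genes is near the background. The 2525 include the 961 and their calls, which brings the shares closer. An unadjusted p under 0.05 was found in 251 of the 961 (26.1%), a share that was not taken over all genes tested. The other 440 genes had fewer than 2 tested sites. Few or none of the 26 calls remained when any 1 frog was left out. The calls over all genes tested fell in the same way, so this loss is not particular to the multi-site genes. The genes called include a muscle Z-disc protein gene (actn3), a ribosome quality control gene (nemf), a nuclear envelope gene (syne2), a muscle ubiquitin ligase gene (fbxo32) and a calcium pump gene (atp2a2).

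In actn3, the alpha-actinin gene of fast muscle fibres (chromosome 4, plus strand, 12 sites over 40062 bases), the last site at 36845839 took 82.1% and 68.9% in the females against 95.9% and 97.5% in the males. The second site, at 36805938 near the upstream end, had 13 and 60 reads in the females against 0 in both males, which had 5402 and 3774 reads in the gene. Site use differed by diffSpliceDGE (adjusted p = 0.0138), and that upstream site was 1 of 3 sites of all multi-site genes that passed on their own (adjusted p = 0.00875). The level of actn3 rose in males, with a log2 fold of 5.45 ± 0.90 (SE, edgeR, adjusted p = 0.0066).

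The other 2 such sites lay in rbm34 and nemf. In rbm34, an RNA-binding protein gene (chromosome 10, plus strand), the eighth of 9 sites, at 3808764, had 24 and 25 reads in the females against 0 in both males (diffSpliceDGE, adjusted p = 0.044). The leading site of rbm34, at 3807812, took 69.8% and 56.9% in the females against 94.1% and 93.3% in the males. In nemf (chromosome 8, plus strand) the fourth of 11 sites, at 72172886, had 62 and 17 reads in the females against 0 in both males (diffSpliceDGE, adjusted p = 0.044). The third, 100 bases upstream of it, took 46.7% and 52.1% in the females against 70.1% and 57.6% in the males, and the first 5.98% and 5.33% against 21.9% and 35.1%. In both genes the sexes did not overlap at these sites. Of 3106 sites of multi-site genes tested, 368 (11.8%) had an unadjusted p under 0.05, a share that was not taken over all sites. After adjustment 3 of the 3106 passed (0.0966%), where all sites gave 0.0607%. Without female 1 the count was 1, and without each other library 0.

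syne2 encodes nesprin-2, a giant protein that ties the nuclear envelope to the cytoskeleton. Its 10 sites spanned 100742 bases of chromosome 8 on the minus strand. The last site, at 80870444, took 88.2% and 74.7% of the reads in the females against 43.0% and 29.6% in the males. The first site, at 80971186, took 1.07% and 1.76% in the females against 57.0% and 57.7% in the males. The most read site was thus at the downstream end in both females and at the upstream end in both males. In reads, the first site had 2 and 3 in the females against 45 and 41 in the males. The gene passed the test of site use (diffSpliceDGE, adjusted p = 0.0215), while the summed exonic level of syne2 did not, at a log2 fold of -0.04 ± 0.55 (SE, edgeR, adjusted p = 0.959).

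fbxo32 encodes the muscle-enriched F-box protein atrogin-1, and its 13 sites lay within 2601 bases of a scaffold. The tenth site, at 553368, took 14.5% and 4.55% in the females against 57.7% and 50.5% in the males. The second site, at 551784, had 23 and 13 reads in the females against 0 in both males. Site use of fbxo32 differed by diffSpliceDGE (adjusted p = 0.0335). Its summed level rose in males at a log2 fold of 2.15 ± 0.56 (SE, edgeR, adjusted p = 0.0217), a call that ended without female 1 or without female 2 and with library size alone as the scaling.

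In atp2a2, the calcium pump gene SERCA2 (chromosome 1, plus strand), the sixth of 10 sites, at 154081305, took 70.7% and 34.8% in the females against 40.7% and 20.4% in the males. The ninth site, 3851 bases further on, took 3.70% and 2.32% in the females against 29.2% and 34.7% in the males, and the tenth, the last, took 0.231% and 1.74% against 14.4% and 19.9%. At these 2 downstream sites the sexes did not overlap, while at the leading site they did. In xirp2, an actin-binding Xin repeat protein gene of muscle with 23 sites on chromosome 9, the leading site was the eighteenth. It took 18.5% and 12.3% in the females against 27.0% and 31.2% in the males. The fifteenth site of xirp2, at 64565481, is not the leading one. It took 10.8% and 1.54% in the females against 35.3% and 32.8% in the males. In llph (chromosome 3, 9 sites) sites 2, 4, 5 and 8 along the transcript had 107 and 88 reads together in the females and 1 read in all in the males. The first site of llph took 20.3% and 33.8% against 35.6% and 51.6%.

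**Figure D3:**
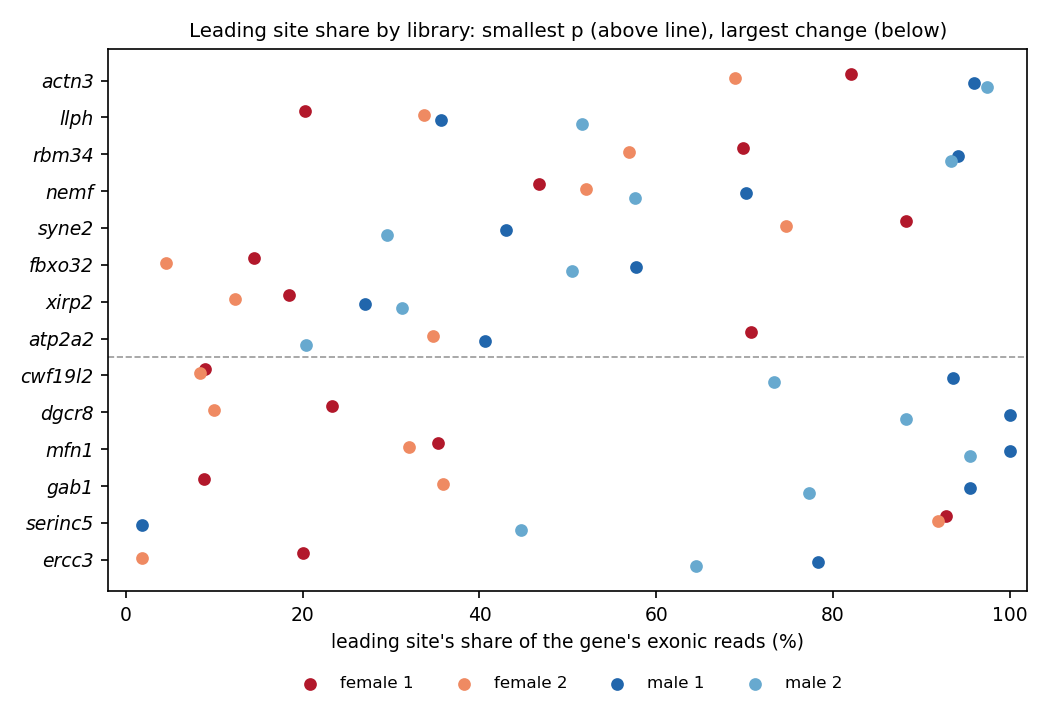
Leading site's share of a gene's exonic reads (horizontal axis, %) in each of the 4 libraries, for the 8 genes with the smallest p in the site use test (above the dashed line) and the 6 with the largest change (below it). Each point is 1 frog, and the 2 males lie apart from the 2 females in all genes but atp2a2.

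The most read site was the same in all 4 libraries in 407 of the 736 genes (55.3%), against 71.0% of all 2236 genes. It was the same within each sex and different between the sexes in 45 genes (6.11%), against 4.74%. In the other 284 genes the most read site differed between frogs of a sex. More sites in a gene make a shared most read site less likely by counting alone, so these differences are not read as a trait of the multi-site genes. The 45 genes include syne2, fbxo32, serinc5, gab1, mfn1 and zc3h13 among those named above. The next examples were chosen after their values were seen. In dpf2, a subunit gene of BAF chromatin remodelling complexes (chromosome 4), the site at 36157543 took 26.9% and 23.2% in the females against 74.7% and 79.0% in the males. A site 2416 bases upstream of it had 93 and 62 reads in the females against 0 and 1 in the males.

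In crk, an SH2 and SH3 adaptor protein gene (chromosome 2), the second site, at 39478950, had 83 and 128 reads in the females against 0 in both males. The site at 39481991 of crk took 28.6% and 10.3% in the females against 58.5% and 63.5% in the males. In nf1, the neurofibromin gene, the last site took 72.0% and 62.7% in the females against 12% and 31.1% in the males. In pafah1b1, the dynein regulator LIS1, the last site took 12.7% and 16.4% in the females against 57.3% and 67.7% in the males. The direction differed between these genes: the downstream end gained share in males in pafah1b1 and lost it in nf1 and syne2. dpf2 and crk passed the test of site use (diffSpliceDGE, adjusted p = 0.0335 for both), and nf1 and pafah1b1 did not (adjusted p = 0.074 for both).

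**Figure D4:**
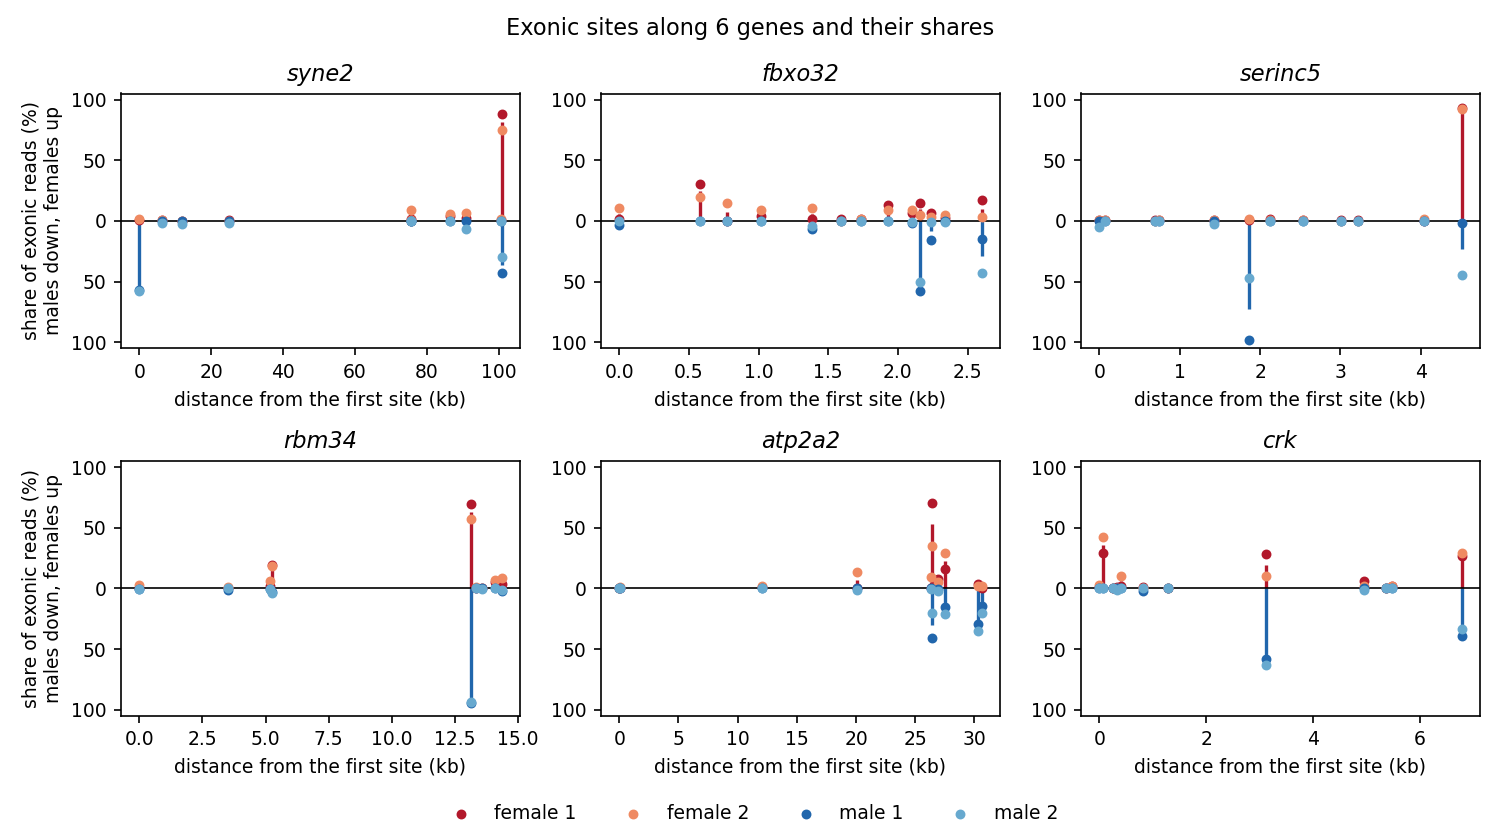
Exonic sites of syne2, fbxo32, serinc5, rbm34, atp2a2 and crk by distance from the first site along the transcript (horizontal axis, kb) and their share of the gene's exonic reads (vertical axis, %), females upward and males downward. Lines show the mean of a sex and points the frogs, and in syne2 the male reads split between both ends while the female reads lie at the downstream end.

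The list of the cleavage and polyadenylation machinery itself holds 20 genes, of which cpsf6 and pcf11 have 6 or more exonic sites. Of the 13 tested for level, 3 were higher in females and 0 in males, where all genes tested gave 18.7% and 16.6%. In cpsf6, a subunit gene of cleavage factor I, the fifth of 9 sites took 35% and 23.6% in the females against 67.1% and 61.9% in the males, on 426, 309, 73 and 21 reads. Its sexes did not overlap, and cpsf6 did not pass the test of site use (diffSpliceDGE, adjusted p = 0.0966). pcf11, a termination factor gene, had 18, 46, 7 and 3 reads, too few to compare shares.

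Exonic reads summed per gene differed in 450 of 1386 tested genes with 6 or more sites (32.5%, against 35.3% of all genes tested), and 15 had too few reads to be tested. Of these, 297 (21.4%) were higher in females and 153 (11%) in males, where all 8921 tested genes gave 18.7% and 16.6%. The median log2 fold, males over females, was -0.79 in the multi-site genes and -0.50 in all genes. With scaling by library size alone these medians were -2.05 and -1.75, and the counts were 636 and 74. Without female 2 the counts were 92 and 45. In 33 tested multi-site genes both males had 0 reads, and in 1 gene, LOC105947824, both females had 0. Such genes met the rule through reads of the other sex alone, and the shares over all genes tested were not taken. Of 3434 single sites tested, 1082 were called (31.5%, against 36.1% of all sites tested), 777 of them higher in females and 305 in males (edgeR). These are 22.6% and 8.88%, against 19.9% and 16.2% of all sites. Without female 1 the site counts were 383 and 150, without female 2 they were 317 and 81, without male 1 458 and 245, and without male 2 779 and 203. For these counts under other scalings or without a frog, shares over all genes or sites were not taken. A shift of the whole table thus cannot be told from one of the multi-site genes there. All genes and all sites tested include the multi-site ones. All sites also include sites outside exons, while those of the multi-site genes are exonic only. The comparisons with all sites thus mix the class of a site with the number of sites in its gene. In the authors' deposited table, 815 of the 11835 sites (6.89%) had an FDR p-value under 0.05, against 6.47% of all sites.

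Groups of genes by role were drawn up by name from the multi-site genes themselves, so they describe these genes only. The counts of each group stand beside 21.4% higher in females and 11% in males among all tested multi-site genes. Group counts under other settings, such as library size alone, have no such share beside them. Muscle genes rose together in males. Of 20 tested sarcomere and muscle membrane genes, 18 were higher in males and 0 in females (edgeR), at a median log2 fold of 4.36, and 13 of these calls held without each of the 4 libraries in turn. The 2 that did not pass were atp2a2, at 0.36 ± 0.55 (SE), and myh10, the gene of a nonmuscle myosin. trdn, the triadin gene of the calcium release complex, had 207 and 86 reads in the females against 4391 and 2422 in the males (log2 5.70 ± 0.90, SE, edgeR, adjusted p = 0.00611). ryr1, the calcium release channel gene, had 56 and 61 against 908 and 420, and xirp2 had 65 and 65 against 1220 and 811. The females and males lay far apart in each of these genes.

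The leading share of these muscle genes was a median of 10.6 points higher in males in the 16 with enough reads. In 7 of the 16 both males lay above both females, and in 0 below. All 736 multi-site genes gave a median of 9.96 points, with both males above both females in 42.0%, so the muscle genes lay near the value of all. trdn reads at the third of its 11 sites made up 28.5% and 22.1% in the females against 46.7% and 49.8% in the males. In ryr1 the last of 7 sites took 37.5% and 39.3% in the females against 37.9% and 35.5% in the males. ryr1 thus rose in level in males with shares that stayed within a few points.

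Genes grouped by symbol under centrosome, kinetochore and spindle were mostly higher in females. The group takes in kinesin genes whatever their role, among them kif21a, kif3a and kif5b. The median log2 fold of the 50 tested was -3.90, or -3.82 with the 10 genes that had 0 reads in both males at their bound. Those 10 genes met the rule through reads of the females alone. Of the 50, 1, kif21a, was higher in males (log2 1.71 ± 0.58, SE, edgeR, adjusted p = 0.0486). The call of kif21a ended whichever frog was left out, with library size alone and with DESeq2. Higher in females were 33 (edgeR). Without female 2 the count was 11. The kinesin gene kif14 had 276 and 248 reads in the females against 0 in both males, at least 77.8-fold higher in females against a floor of 3 reads over both males. prc1.2, a midzone protein gene, had 174 and 289 against 0 and 0, at least 68.7-fold. mki67, the gene of the proliferation antigen Ki-67 with 25 sites, had 1173 and 1012 against 50 and 21 (log2 -3.83 ± 0.65, SE, edgeR, adjusted p = 0.00725). tacc3, the gene of a spindle protein known in Xenopus laevis as maskin, had 566 and 1099 against 5 and 6. The egg markers given above were also higher in females, and a link between the 2 sets was not tested. Only 9 of the centrosome, kinetochore and spindle genes had 20 reads in every library.

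Of 94 chromatin protein genes, females had the higher level in 21 and males in 10 (edgeR), at a median of -1.08. These counts lie near the 21.4% and 11% of all tested multi-site genes. Without female 2 these counts were 9 and 0, and with library size alone 51 and 1. dnmt1, the maintenance DNA methyltransferase gene, had 960 and 1075 reads in the females against 4 and 3 in the males. kmt5a, the histone H4 lysine methyltransferase gene, had 703 and 823 against 11 and 5. smc2 and smc4, the condensin ATPase genes, had 269 and 425 against 11 and 3, and 252 and 417 against 12 and 13. Each of these 4 calls held without each library in turn. The male shares of their sites rest on 3 to 13 reads.

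RNA-binding and splicing genes numbered 91, of which 90 were tested, with 10 higher in females and 6 in males (edgeR) at a median of -0.31. Both counts lie below the shares of all tested multi-site genes, 21.4% and 11%. Without female 2 both counts were 0, and with library size alone they were 39 and 2. serbp1, an mRNA-binding protein gene with 15 sites, had 606 and 526 reads in the females against 3047 and 2163 in the males (log2 3.38 ± 0.73, SE, edgeR, adjusted p = 0.0123). Its leading site took 33.5% and 16% in the females against 31.9% and 27.4% in the males. srsf1, a splicing factor gene, had 389 and 557 against 25 and 34, and the leading site, ranked 5 of 6, took 95.1%, 91.0%, 96.0% and 97.1%. The level of srsf1 differed between the sexes while the share of its leading site stayed above 90% in each frog.

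Plakin, AHNAK and junction genes, which anchor filaments at the cell surface, had 10 of 17 higher in males and 1, the catenin gene ctnna1, higher in females (edgeR). Without female 2 the first count was 3, and with library size alone 5 were higher in each sex. ppl, the periplakin gene with 15 sites, had 113 and 93 reads in the females against 3689 and 822 in the males (log2 5.48 ± 0.90, SE, edgeR, adjusted p = 0.0066). The leading site of ppl took 62.0% and 34.4% in the females against 80.9% and 70.9% in the males. Of 13 neurofilament, neuronal and secretory granule genes, 7 were higher in males and 0 in females (edgeR). nefh, the heavy neurofilament gene with 17 sites, had 30 and 4 reads in the females against 528 and 295 in the males. The neuronal markers as a list stood at 99.2 and 44.7 CPM in the females against 2411 and 1833 in the males.

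**Figure D5:**
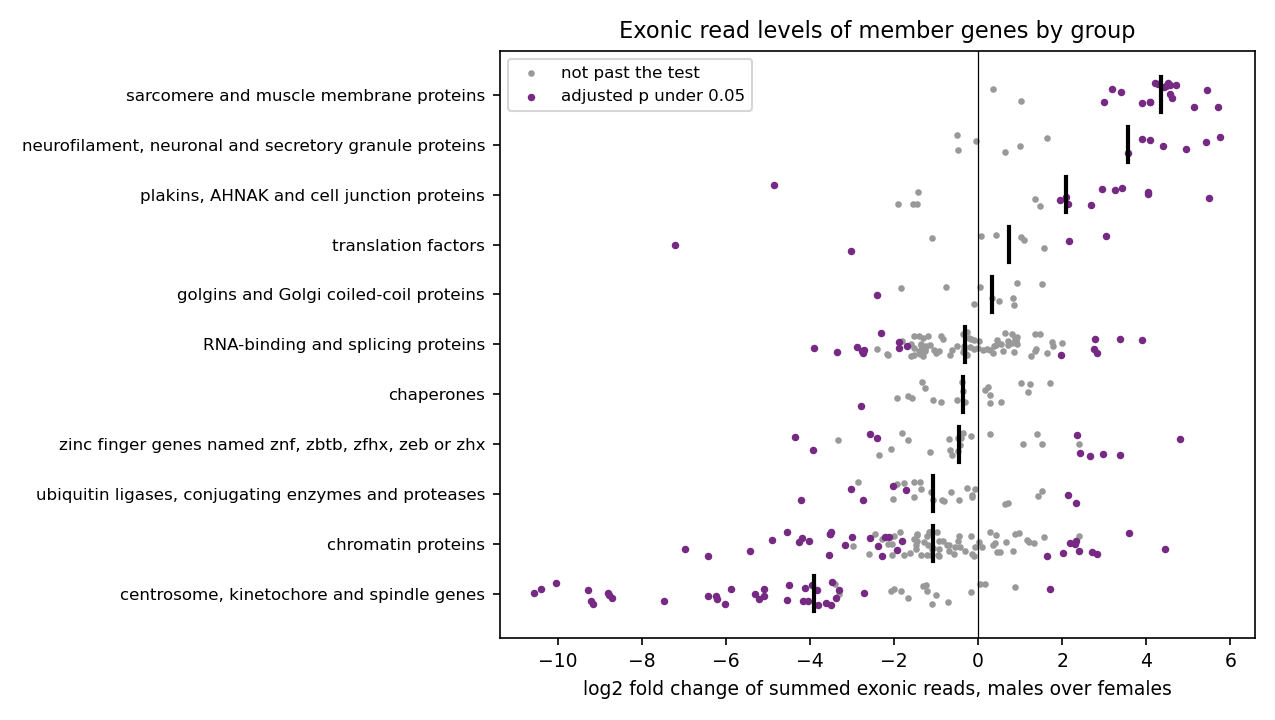
Log2 fold change of summed exonic reads, males over females (horizontal axis), of genes with 6 or more exonic sites, by group of role (vertical axis, 1 row per group). Points are genes, purple where the adjusted p was under 0.05 (edgeR), and bars are medians, which run from -3.90 for centrosome, kinetochore and spindle genes to 4.36 for sarcomere and muscle membrane genes.

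Cytosolic ribosomal protein genes were absent: 0 of the 78 in the table had 6 or more exonic sites. The translation factor list was drawn up from the names of multi-site genes, so its share is not compared with that of all genes. It holds 60 genes, of which 10 had 6 or more exonic sites (16.7%). Among these, eef1a1o, the oocyte form of elongation factor 1 alpha, had 2795 and 2369 reads in the females against 16 and 1 in the males (log2 -7.21 ± 1.08, SE, edgeR, adjusted p = 0.00573). eif4enif1, the eIF4E transporter gene, had 790 and 525 against 61 and 16 (log2 -3.02 ± 0.68, SE, edgeR, adjusted p = 0.0141). eef2.1 and eif4b were higher in males. The call of eef2.1 ended without female 2, male 1 or male 2, and that of eif4b without female 1, female 2 or male 1. With library size alone 0 translation factor genes passed as higher in males.

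The multi-site genes with the most reads were 3 myosin heavy chain genes, eef2.1, cars2 and pabpc1, the cytoplasmic poly(A)-binding protein gene. The leading sites of myh7, LOC100495212 and myh3 lie within 68327 bases on the minus strand of chromosome 10, and reads of such similar neighbours cannot be assigned with certainty. LOC100495212 had 827 and 438 CPM in the females against 12699 and 9063 in the males (log2 4.10 ± 0.96, SE, edgeR, adjusted p = 0.0162), a call that ended without female 2 or male 2. Its last site took 94.5% and 92.4% in the females against 95.1% and 98.0% in the males. In myh7 the last of 14 sites took 81.4% and 52.5% in the females against 75.2% and 75.9% in the males. In myh3 the eighth of 9 took 81.4% and 53.0% against 71.4% and 60.0%. Female 2 had the lowest share in all 3 genes, and in myh7 and myh3 the sexes overlapped.

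cars2, a mitochondrial cysteinyl-tRNA synthetase gene by its symbol, had 665 and 187 CPM in the females against 6437 and 5784 in the males (log2 3.84 ± 0.97, SE, edgeR, adjusted p = 0.02), a call that ended without female 2 or male 2. Its last site took 96.1% and 95.6% in the females against 99.2% and 98.6% in the males. pabpc1 rose in males with 714 and 648 CPM in the females against 4922 and 4256 in the males (log2 2.75 ± 0.78, SE, edgeR, adjusted p = 0.0273), a call that ended without female 2, male 1 or male 2 and with library size alone. The eighth of 9 sites of pabpc1 took 38.8% and 26.3% in the females against 23.8% and 42.1% in the males, which overlap.

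Reads of the same genes also fell outside exonic sites. On the gene's own strand, exonic sites held 82.4% and 85.2% of the reads of the 1401 genes in the females against 81.6% and 82.2% in the males. Intronic sites held 1.94% and 1.56% in the females against 8.19% and 7.53% in the males. In genes with 2 to 5 exonic sites the intronic share was 2.17% and 1.47% in the females against 4.23% and 3.48% in the males. Both males lay above both females in each set. With all sites on the own strand in the test of site use, 188 of 1051 multi-site genes passed in place of 26 of 961 (diffSpliceDGE), and all 26 were among them. Over all genes tested, 550 of 3509 passed in place of 50 of 2525, so the calls rose across all genes.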

How the data were processed

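A single table, deposited by the authors, lists the raw count of reads at each polyadenylation site in the 4 libraries (2 females, 2 males). Reads were mapped with Bowtie2 2.2.3, going by the tools in the submitters' processing notes; genome build, site calling and filters are not given in the sources. Positions are those of the table, and chromosome numbers come from gene symbols in a RefSeq table (UCB_Xtro_10.0). Per the file headers it also holds p-values from a comparison of the sexes by the authors, with a signed fold change (a score). No genome of the build was used here, so sites were not checked for A-rich stretches. The labels name no molecular identifiers, so folds against a floor of 3 reads cover counting error only.

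Sites, sums of class c and o sites per gene, and site use were fitted over the whole table with edgeR 4.0.16 in R 4.3.3 (TMM, filterByExpr with minimum count 10 and minimum total 15, glmQLFit, glmQLFTest and diffSpliceDGE in genes with at least 2 tested sites, Benjamini-Hochberg adjustment at 0.05). DESeq2 1.42.0 was an alternative, as were other scalings, filters, rules and leaving out each frog. The fits were tested on simulated counts, with large changes placed at rows with many reads and the spread set in advance. This checks the code and does not measure power or false calls in these data. Shares used genes with at least 20 exonic reads in every library. Standard errors are the absolute log2 fold divided by the square root of F. With 2 frogs against 2, an exact two-sided permutation test cannot go below p = 0.333, so single shares carry no such test. The p-values measure the spread between 4 frogs.

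Named genes are the 6 with most exonic sites, the 6 of highest mean CPM, the 6 of widest span, the 6 of largest and 4 of smallest change in leading share, the 8 of smallest p for site use, and the 3 of highest and 3 of lowest leading share. Other genes, and the examples within groups of role, were chosen after their values were seen. The groups of role were drawn up from the names of these genes. The genes, rules and lists were chosen with earlier results of these data known. Liver, connective tissue and blood marker lists were also higher in males, in 13 of 16, 10 of 12 and 5 of 8 tested genes, and 24 of 25 egg genes were higher in females and 22 of 22 muscle genes and 11 of 12 nerve genes in males (edgeR).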

Additional observations from a re-analysis of the deposited data

How the results depend on the processing

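Of the main results, 78 of the values under other settings stayed within 1.5 times the count or within the replicate spread, and 39 did not. For medians this rule did not ask for the same sign. For the median span, which has no replicate spread, any difference counted among the 39. The median change in site index, -0.0025 with all frogs, was 0.0132 without female 1 and 0.0037 without male 1. It was -0.0165 without female 2 and -0.0066 without male 2. Merging sites within 25 bases could change nothing, since no pair was closer than 26, yet its values count among the 78. Leaving out 1 frog at a time, where the lone frog of a sex is assumed to vary like the other sex, gave 317 to 779 site calls higher in females (777 with all frogs) and 81 to 245 higher in males (305), 92 to 337 gene calls higher in females (297) and 45 to 120 higher in males (153), 0 to 2 genes of changed site use (26), 0 to 1 sites of changed use (3), and a median change in leading share of 5.35 to 17.5 points (9.96). Library size alone gave 636 and 74 gene calls, without a share taken over all genes. A filter of 1 CPM in 2 libraries gave 2200 site calls higher in females and 56 genes of changed use, no filter gave 165 site calls higher in males and 1 site of changed use, and DESeq2 gave 195 site calls higher in males. All sites on the own strand gave 188 genes and 153 sites of changed use. Over all genes tested, changed use was called in 110 of 5831 with the 1 CPM filter and in 550 of 3509 with own-strand sites. The main setting called 50 of 2525. Following the most downstream site gave -1.04 points.

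With 5 or more exonic sites in the rule, 466 genes were called higher in females and the median span was 11013.5 bases. With 7 or more these were 197 and 15823.5. With sites within 100 bases merged, an alternative added after the data were seen, the span was 14841.5. With sites read outside female 2 it was 13019, with 178 gene calls higher in females, and with sites of 5 or more reads it was 14986, with 157 gene calls higher in females and 95 higher in males. The causes were not tested.

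The replicate numbers of the labels are shared by both sexes but do not say that frogs are paired. Deviations from the group means correlated at 0.324 over 8242 genes between frogs of the same number, with 2 pairs only. The opposite pairing gives -0.324 by construction, so the value cannot show that frogs were paired. Female 2 and male 2 each had reads at more sites than the other frog of their sex, and the part of this was not tested. With the replicate block, site use was called in 69 genes and at 39 sites, and 25 of the 26 genes remained. Over all 2525 genes tested for site use, 126 were called with the block and 50 without it. For levels, 940 and 383 sites and 429 and 204 genes were called higher in females and in males.

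Among named genes, 24 values changed sign. Leaving out 1 frog moved the change in leading share over ranges that include 0, namely -17.6 to 17.4 points in baz1b, -8.17 to 7.85 in bicd2, -0.243 to 1.32 in eef2.1, -3.85 to 5.39 in ehbp1l1, -20.8 to 8.74 in golgb1, -13.4 to 13.7 in mkl2, -15.7 to 12.7 in myh3, -5.89 to 23 in myh7, -8.73 to 9.56 in pabpc1, -36.2 to 4.28 in rock2, -7.27 to 7.85 in zc3h13 and -4.91 to 8.77 in znf407. With all sites on the own strand the change was -7.63 points in mkl2, -22.1 in rock2 and -16.4 in znf407. A further 95 values of named genes no longer passed under an alternative and 12 passed that had not.

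Depth limits the shares in males, where 560 genes had under 20 exonic reads in male 2, and 2844 of the 11835 sites (24.0%) had fewer than 5 reads over all 4 libraries.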
